A study of Homo sapiens with 4 samples.

Results

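Broad anchors are the segments of 20 kb or more among the anchors of H3K27ac HiChIP contacts in colorectal cancer cell lines. An anchor is a stretch of genome. The paired-end tags (PETs) of a ligation library were counted for pairs of anchors, an anchor with itself included. Members were taken per line by length alone, from the tables of pairs on 1 chromosome: 430 of 21770 anchors in HCT116, 430 of 22023 in LS513, 310 of 9177 in SW480 and 1028 of 24255 in SW620, or 2198 of 77225 summed over the 4 lines. They were chosen by anchor length, so that numbers and lengths, and the PETs described with them, are descriptions and not tests. HCT116 is labelled a colorectal carcinoma line, LS513 a Dukes' type C colorectal carcinoma line, SW480 a Dukes' type B and SW620 a Dukes' type C colorectal adenocarcinoma line. All 4 came from ATCC, were left untreated, were fixed with formaldehyde and cut with MboI. Each line had 1 library, so that no value has a replicate check and no significance test was made. EPCAM, KRT8 and KRT18, which mark epithelial cells, and CDX2, an intestinal transcription factor, lay at anchors in all 4 lines. The SW480 anchor at EPCAM held only 4 PETs with both ends in it. Other regulators and markers of the colon and of epithelia did not lie at anchors in every line. ELF3, SOX9, HNF4A and GATA6 had no anchor in SW480, and LGR5 had anchors in SW620 only. Genes are placed here from general knowledge of hg19 positions, since no hg19 annotation was at hand.

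HCT116 and LS513 had almost the same anchor list: 21606 anchors had the same start and end in both, all 430 broad ones included. For breadth they therefore count as 1 list, while their PETs were counted separately. The smallest gap between neighbouring anchors was 501 bp in each of the 4 lines. SW480 was the shallowest library, with 130508 same-anchor PETs. SW620 had 844521 of them, HCT116 863012 and LS513 1386645. A count of 0 allows up to 23.0 same-anchor PETs per 1000000 in SW480, 3.55 in SW620, 3.48 in HCT116 and 2.16 in LS513 (3 counts). PETs are given as counted, per anchor or per kb, so that counts of different lines are not on 1 scale except where they are said to be scaled.

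Acetylation of lysine 27 on histone H3 marks active enhancers and promoters. Where such elements stand close together the mark can run on over long stretches, known as stretch enhancers or super-enhancers, which often lie at genes that define a cell's identity. HiChIP joins proximity ligation in fixed nuclei with immunoprecipitation of the mark, so that a PET with both ends in 1 anchor reports acetylated chromatin there and a PET between anchors reports a contact.

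Promoters of 4 genes whose transcription start lay in a broad anchor are shown because these anchors recur in the results: ZFP36 had the densest broad anchor of HCT116 and LS513, BCL2L1 the densest of SW480, FAT1 a broad anchor in HCT116 and LS513 but in neither other line, and TRIM47 an anchor with 43 partners in SW620. Each sequence is the 250 bases before the start, 5′ to 3′ on the gene's strand, from RefSeq on GRCh38.p14, a build whose positions cannot be set beside the hg19 positions of the anchors. Capitals mark GATC, the site cut by MboI.
ZFP36 (chr19:39406597-39406846, plus strand): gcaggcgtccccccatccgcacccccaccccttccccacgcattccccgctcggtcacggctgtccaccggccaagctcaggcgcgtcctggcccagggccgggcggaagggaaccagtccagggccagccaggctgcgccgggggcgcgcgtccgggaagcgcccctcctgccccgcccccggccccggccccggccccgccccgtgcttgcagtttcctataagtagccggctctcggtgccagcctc
BCL2L1 (chr20:31723964-31724213, minus strand): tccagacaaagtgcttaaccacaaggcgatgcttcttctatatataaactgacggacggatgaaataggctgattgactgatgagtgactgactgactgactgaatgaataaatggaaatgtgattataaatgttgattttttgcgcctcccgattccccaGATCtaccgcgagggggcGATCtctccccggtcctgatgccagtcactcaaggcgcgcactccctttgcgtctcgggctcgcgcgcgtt
FAT1 (chr4:186726697-186726946, minus strand): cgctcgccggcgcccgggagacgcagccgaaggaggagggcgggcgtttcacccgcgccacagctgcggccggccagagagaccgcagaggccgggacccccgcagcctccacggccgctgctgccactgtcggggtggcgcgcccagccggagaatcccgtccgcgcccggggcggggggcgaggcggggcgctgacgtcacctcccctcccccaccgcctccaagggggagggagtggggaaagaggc
TRIM47 (chr17:75878582-75878831, minus strand): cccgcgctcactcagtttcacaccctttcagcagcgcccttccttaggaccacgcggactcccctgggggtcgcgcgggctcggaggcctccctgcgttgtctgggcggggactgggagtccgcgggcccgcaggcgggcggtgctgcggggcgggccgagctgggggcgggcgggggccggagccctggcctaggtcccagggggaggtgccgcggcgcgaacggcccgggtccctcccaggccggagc
GATC occurred 2 times before BCL2L1 and 0 times before the other 3 genes. It was found in 35.8% of 27305 RefSeq promoters of the same length. The AP-1 motif TGANTCA was in none of the 4 windows and in 6.60% of all promoters. Both motifs read the same on either strand in their fixed letters and do not overlap one another. GC content was 76.4% for ZFP36, 50% for BCL2L1, 78% for FAT1 and 77.6% for TRIM47, against a median of 58% over all promoters.

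Broad anchors were 4.24% of anchors in SW620 (95% interval 3.99 to 4.50, Clopper-Pearson), 3.38% in SW480 (3.02 to 3.77), 1.98% in HCT116 (1.79 to 2.17) and 1.95% in LS513 (1.77 to 2.14). These and all other intervals cover counting error only. SW620 held the largest number and the largest share, and SW480 had a larger share than HCT116 and LS513 despite its few anchors. The median broad anchor was 27.1 kb long in SW620, 26.3 kb in SW480 and 25.3 kb in HCT116 and LS513. The longest was 81.4 kb in SW620, 78.7 kb in SW480 and 66.7 kb in HCT116 and LS513. Lengths of 50 kb or more were reached by 7 anchors in HCT116 and LS513, 5 in SW480 and 33 in SW620. Together broad anchors covered 19.3% of the anchored length in SW620, 13.6% in SW480, 9.60% in HCT116 and 9.53% in LS513.

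Their share of same-anchor PETs was higher than their share of length in every line: 24.3% in SW620, 17.3% in SW480, 12.3% in LS513 and 11.8% in HCT116. They also held 19.6%, 18.2%, 11.0% and 10.9% of the ends of filtered loop PETs, which join different anchors whose midpoints lay 5 kb or more apart, in the same order of lines. Of PETs between chromosomes they held 18.99%, 13.1%, 9.52% and 9.24% of the ends, which was close to their share of the anchored length.

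Per anchor, the median number of same-anchor PETs was 187.5 at broad anchors and 19 at anchors under 20 kb in HCT116, 311.5 and 23 in LS513, 57.5 and 6 in SW480, and 143 and 11 in SW620. A longer anchor can collect more PETs by its length alone, so values per kb stand beside these. Both ends of a same-anchor PET must lie in the anchor, so a longer one can also keep more of them per kb. Anchor length may also rest on the same reads. The part of either was not tested. Per kb the medians were 6.85 and 4.02 in HCT116, 10.7 and 4.74 in LS513, 2.14 and 1.08 in SW480, and 5.09 and 2.23 in SW620. The density was thus 1.71 times that of narrower anchors in HCT116, 2.26 times in LS513, 1.98 times in SW480 and 2.29 times in SW620. Totals over total kb gave lower ratios, of 1.34 in SW620, 1.33 in SW480 and LS513 and 1.26 in HCT116. Every broad anchor had same-anchor PETs, with a lowest count of 5 in SW480, 10 in SW620, 17 in HCT116 and 29 in LS513.

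Partners are the anchors joined to an anchor in the filtered loop table. Broad anchors had a median of 11 partners against 3 at narrower anchors in HCT116, 18 against 5 in LS513, 4 against 1 in SW480 and 13 against 3 in SW620. Per kb the order turned. Median partners per kb were 0.363 at broad and 0.523 at narrower anchors in HCT116, 0.655 and 0.970 in LS513, 0.145 and 0.185 in SW480, and 0.451 and 0.699 in SW620. Filtered PETs per kb were higher at broad anchors, with medians of 1.02 and 0.730 in HCT116, 3.12 and 1.80 in LS513, 0.389 and 0.228 in SW480, and 1.51 and 1.08 in SW620. By totals over total kb the ratio of broad to narrower anchors in filtered PETs per kb was 1.02 in SW620, 1.41 in SW480, 1.18 in LS513 and 1.16 in HCT116. With only the anchors of filtered loops the ratio of medians in SW480 was 1.02, so that the size of this difference depended on how they were averaged and on which anchors were used. In SW480 9 broad anchors had no partner, in HCT116 1 and in LS513 and SW620 0. Among narrower anchors 34.4% had none in SW480, 15.3% in HCT116, 7.26% in LS513 and 8.82% in SW620.

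**Figure D1:**
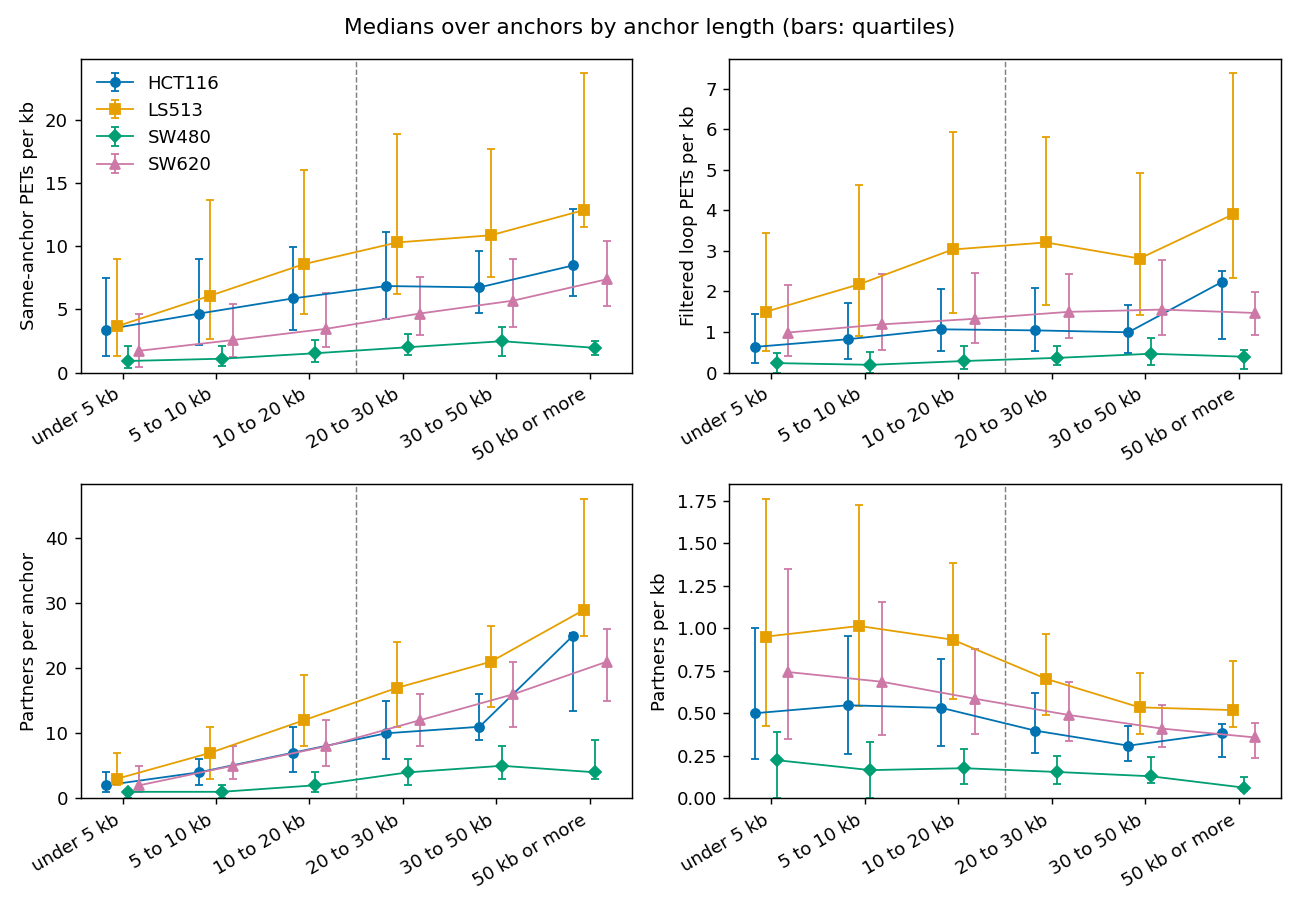
Median same-anchor PETs per kb, filtered loop PETs per kb, partners per anchor and partners per kb (y axes) by anchor length class (x axis) in HCT116, LS513, SW480 and SW620, with bars for the quartiles and a dashed line at 20 kb. Partners per anchor were higher in the classes above 20 kb than in those below it, while partners per kb were lower; the class of 50 kb or more holds 7, 7, 5 and 33 anchors.

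The class medians differed between lines in how they ran with length. In SW620 same-anchor PETs per kb had medians of 1.72, 2.57, 3.47, 4.67, 5.69 and 7.38 from anchors under 5 kb to those of 50 kb or more. Partners per kb in SW620 had medians of 0.742, 0.685, 0.585, 0.490, 0.410 and 0.358 over the same classes. In HCT116 they were 0.500, 0.547 and 0.532 in the classes below 20 kb and 0.398, 0.309 and 0.384 above it, and in LS513 0.951, 1.01 and 0.933 below and 0.703, 0.535 and 0.519 above. Filtered PETs per kb in HCT116 had medians of 0.632, 0.822 and 1.07 below 20 kb and 1.04, 0.993 and 2.23 above it. The 10 anchors just inside the threshold and the 10 just outside it had medians of 164.5 and 105 same-anchor PETs in HCT116, 307 and 134.5 in LS513, 39 and 47 in SW480, and 68.5 and 82.5 in SW620. Their median partners were 7.5 and 7.5 in HCT116, 17.5 and 13 in LS513, 2 and 3.5 in SW480, and 9.5 and 9 in SW620. The order of the groups at the threshold thus differed between lines.

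Loops with a broad anchor at each end were few and carried many PETs. They numbered 213 of 40696 filtered loops in HCT116, 320 of 74401 in LS513, 129 of 7024 in SW480 and 1077 of 62104 in SW620. Mean PETs per loop were 1.83, 3.04 and 9.11 with 0, 1 and 2 broad anchors in HCT116, 2.69, 4.95 and 16.3 in LS513, 1.72, 2.65 and 6.26 in SW480, and 2.10, 3.32 and 8.23 in SW620. These means are not set per kb, and the median anchor was 25.3 kb if broad and 4.485 kb if narrower in HCT116. A pair of longer anchors can collect more PETs by length alone. The part of length was not tested. The share of loops with an authors' FDR under 0.01 (a value per loop in a deposited table with no header, read as an FDR) was 18.2% over all filtered loops of LS513, 17.2% in SW620, 14.5% in SW480 and 12.8% in HCT116. With 1 broad anchor it was 34.5% in LS513 (33.4 to 35.6), 27.3% in SW620 (26.5 to 28.0), 25.2% in SW480 (22.8 to 27.7) and 25.8% in HCT116 (24.6 to 27.1). With 2 it was 69.7% (64.3 to 74.7), 54.9% (51.8 to 57.9), 68.2% (59.4 to 76.1) and 56.8% (49.9 to 63.6). The FDR falls as PETs rise, so that both differences rest on the same counts. These loops were not shorter: the median span was 189.7 kb with 2 broad anchors and 123 kb with none in HCT116, 311 and 179 kb in LS513, 152 and 72.5 kb in SW480, and 269.7 and 134 kb in SW620.

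Broad anchors stood close to other anchors. The median gap to the nearest anchor was 4.10 kb at broad and 13.4 kb at narrower anchors in HCT116, 4.08 and 13.4 kb in LS513, 6.07 and 19.1 kb in SW480, and 2.63 and 8.30 kb in SW620. A neighbour within 5 kb was found for 69.3% of broad anchors in SW620, 55.6% in LS513, 55.3% in HCT116 and 43.2% in SW480. Among narrower anchors the share was 39.6% in SW620, 27.3% in LS513, 27.3% in HCT116 and 27.1% in SW480.

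A broad anchor of 1 line could meet a broad anchor of another line, shorter anchors or none. Of the 430 broad anchors of HCT116, 185 (43.0%) overlapped a broad anchor of SW620 and 65 (15.1%) one of SW480, by at least 1 bp. Of the 310 of SW480, 157 (50.6%) overlapped a broad anchor of SW620 and 62 (20%) one of HCT116. Of the 1028 of SW620, 187 (18.2%) overlapped a broad anchor of HCT116 and 159 (15.5%) one of SW480. LS513 gave the same shares as HCT116 because its broad anchors are the same. These lists differ in size, and each share is of its own list. The overlap of SW480 with SW620, the longest list, was the highest of these. Among anchors under 20 kb, a broad anchor of SW620 was met by 5.81% of those of HCT116 and 10.4% of those of SW480. One of HCT116 was met by 3.97% in SW480 and 1.68% in SW620, and one of SW480 by 1.55% in HCT116 and 1.05% in SW620. A longer anchor can meet more by its length alone.

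Most broad anchors without a broad counterpart still met some anchor. Of the 245 broad anchors of HCT116 that were not broad in SW620, 120 overlapped several narrower anchors there, 55 overlapped a single one and 70 overlapped none. Of the 841 of SW620 not broad in HCT116, 364 overlapped several narrower anchors, 294 a single one and 183 none, with up to 7 narrower anchors under 1 broad one. For the 365 of HCT116 not broad in SW480 the numbers were 86, 154 and 125. Any SW480 anchor was met by 70.9% of the broad anchors of HCT116, against 15.9% of its anchors under 5 kb, 30.5% at 5 to 10 kb and 50.8% at 10 to 20 kb.

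The share that met any anchor in another line did not run the same way with length in each pair. HCT116 anchors that met an SW620 anchor made up 60.1% of those under 5 kb, 77.0% at 5 to 10 kb, 86.0% at 10 to 20 kb, 86.0% at 20 to 30 kb (81.6 to 89.7), 78.9% at 30 to 50 kb (70.6 to 85.7) and 71.4% at 50 kb or more, the last from 5 of 7 anchors. In the other direction the share of SW620 anchors that met an HCT116 anchor was 56.3%, 60.1%, 67.9%, 79.1%, 86.8% and 93.9% over the same classes. The intervals of the longer HCT116 classes overlap, so that no fall above 20 kb was shown beyond counting error.

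**Figure D2:**
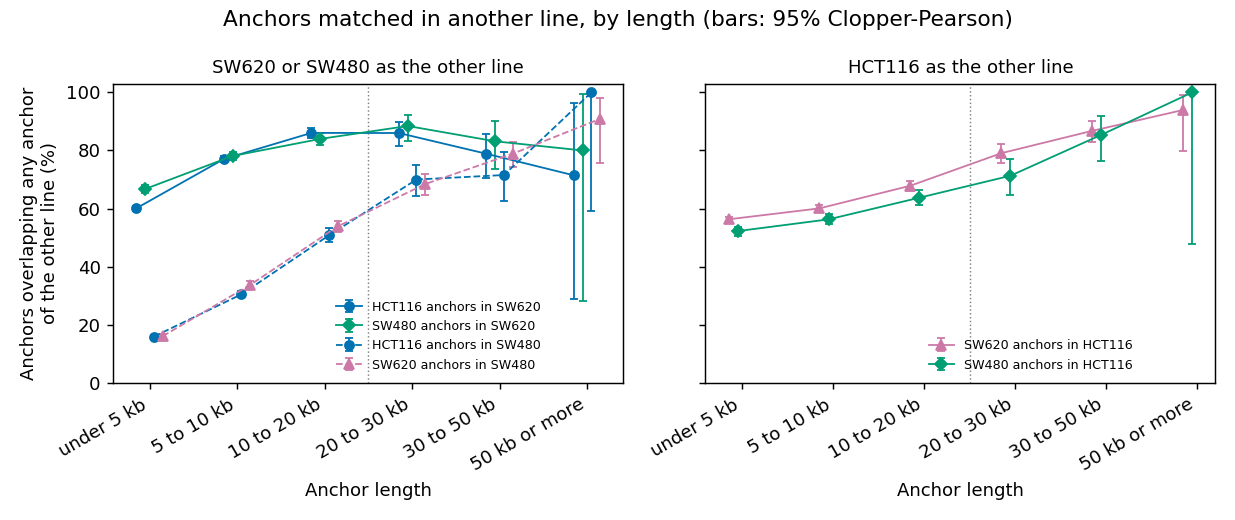
Share of anchors that overlap any anchor of another line (y axis, percent) by anchor length (x axis), for 4 pairs with SW620 or SW480 as the other line (left) and 2 with HCT116 as the other line (right), with 95% Clopper-Pearson intervals and a dotted line at 20 kb. HCT116 anchors in SW620 reached 86.0% at 10 to 30 kb and were lower above that, while SW620 anchors in HCT116 were at 93.9% for 50 kb or more.

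Merging broad anchors that overlapped gave 1399 regions. SW620 alone held 726 of them (51.9%), HCT116 and LS513 held 223 that were in neither other line, and SW480 alone held 135. A further 140 were broad in HCT116, LS513 and SW620, 112 in SW480 and SW620, 18 in HCT116, LS513 and SW480, and 45 (3.22%) in all 4 lines. No region was broad in HCT116 without LS513, which follows from their identical lists. Overlaps were chained, so that the broad anchors of a region need not all share a base.

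**Figure D3:**
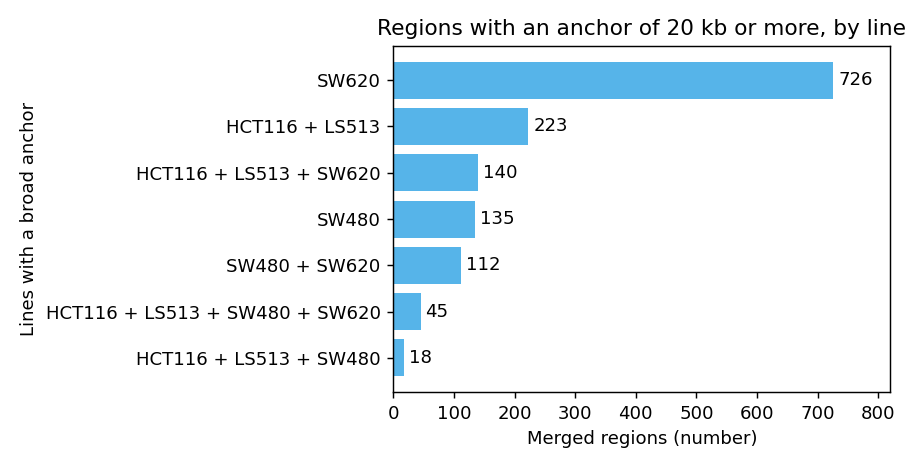
Number of merged regions (x axis) by the set of lines with an anchor of 20 kb or more there (y axis). SW620 alone held 726 of 1399 regions, and 45 held a broad anchor of every line.

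Regions broad in all 4 lines had more same-anchor PETs per kb than broad anchors at large, with medians of 8.65 against 6.85 in HCT116, 15.1 against 10.7 in LS513, 3.10 against 2.14 in SW480 and 8.72 against 5.09 in SW620. Their median number of partners was 10 against 11, 17 against 18, 5 against 4 and 18 against 13. In SW620 these anchors were also longer, with a median of 32.6 kb against 27.1 kb. The medians were 26.4 against 26.3 kb in SW480 and 25.1 against 25.3 kb in HCT116 and LS513. The part of length was not tested. SW620 had the longest summed anchor in 25 of the 45 regions, SW480 in 11 and HCT116 and LS513 in 9.

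The region with the longest summed length was chr17:47956842-48037986, between TAC4 and DLX4, a homeobox gene. Its broad anchor was 65.9 kb long in SW480, 65.3 kb in SW620 and 39.1 kb in HCT116 and LS513, and held 212, 149, 93 and 255 same-anchor PETs in HCT116, LS513, SW480 and SW620. Density there was low, at 5.43, 3.81, 1.41 and 3.91 PETs per kb, below the median broad anchor in each of the 4 lines. At chr9:132218057-132271368, over the long non-coding RNA gene LINC00963, the anchor was 53.3 kb long in HCT116 and LS513, 47.9 kb in SW620 and 27.2 kb in SW480. It held 1149, 1726, 164 and 833 same-anchor PETs in HCT116, LS513, SW480 and SW620. The densities of 21.6, 32.4, 6.04 and 17.4 per kb were all above the line's median broad anchor.

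ZNRF3, whose product removes Wnt receptors from the cell surface, lay at chr22:29284543-29333692 with anchors of 49.1 kb in SW620, 47.8 kb in HCT116 and LS513 and 23.8 kb in SW480. In HCT116, LS513, SW480 and SW620 these held 413, 661, 145 and 488 same-anchor PETs and had 9, 17, 7 and 20 partners. PADI1, an arginine deiminase gene, lay at chr1:17507969-17569120, where SW620 had a pair of broad anchors of 28.4 and 24.1 kb. The other lines had 1 each, of 37.5 kb with 411 PETs in HCT116 and 1321 in LS513 and of 36.0 kb with 105 PETs in SW480. SHB, which encodes a signalling adaptor, lay at chr9:38004313-38053972 with 366, 987, 45 and 221 same-anchor PETs in HCT116, LS513, SW480 and SW620. SW480 was below its own median broad density there, at 1.69 per kb. The remaining 40 regions included the epithelial ETS factor EHF, the keratin KRT8, the Wnt feedback gene AXIN2, the Wnt coreceptor LRP5, BCL9L, RARA, LMNA, MYOF, GPRC5A and H19, chosen for mention after their values were seen. At LRP5 the broad anchor of SW480 shared no base with that of HCT116 and LS513, and the one of SW620 joined them.

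**Figure D4:**
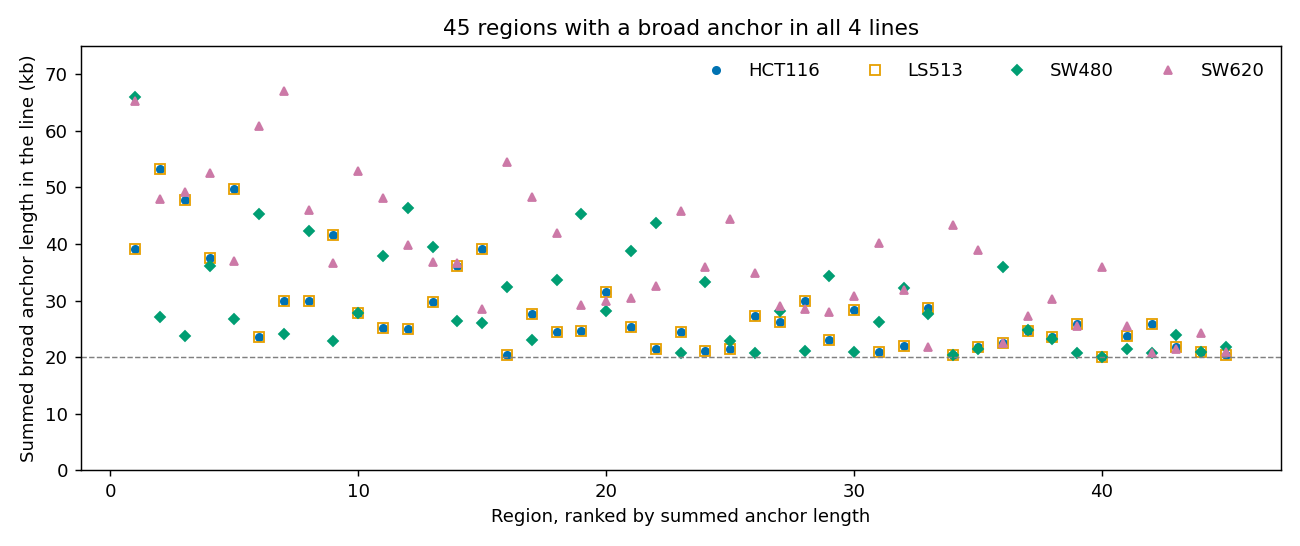
Summed broad anchor length in kb (y axis) in HCT116, LS513, SW480 and SW620 for the 45 regions that were broad in all 4 lines, ranked by summed length (x axis), with a dashed line at 20 kb. HCT116 and LS513 points coincide, and SW620 had the longest summed anchor in 25 regions.

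The broadest anchor of HCT116 and LS513 was chr17:79861865-79928607, of 66.7 kb, over NOTUM, a secreted enzyme that inactivates Wnt proteins, and MAFG, a small Maf transcription factor. It held 566 same-anchor PETs in HCT116 and 859 in LS513. SW620 had 2 anchors there, the longer of 42.1 kb, with 855 PETs, and SW480 had 1 of 13.4 kb with 115. The next, chr17:70369214-70434362 of 65.1 kb, held no gene that could be named with certainty. It had 1115 same-anchor PETs in HCT116, 979 in LS513 and 240 over 4 anchors in SW480, while SW620 had no anchor there. The third, chr4:187586853-187651643 of 64.8 kb, lay over the start of FAT1, an atypical cadherin gene. It held 407 PETs in HCT116 and 813 in LS513, while SW480 had 85 on 1 anchor of 14.0 kb and SW620 had 241 on 5 anchors of up to 14.9 kb.

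In SW480 the broadest anchor was chr14:69001522-69080233, of 78.7 kb, in RAD51B, a gene of homologous recombination. It held 154 PETs, or 1.96 per kb, where SW620 had 7 anchors of up to 20.6 kb with 170 PETs and HCT116 and LS513 had 4 of up to 6.33 kb with 197 and 149. The TAC4 to DLX4 region came next, then chr2:85638087-85701961, of 63.9 kb, over the actin-capping gene CAPG and SH2D6. It held 158 PETs in SW480, and 4 or 5 shorter anchors in the other lines held 389 in SW620 and 586 in both HCT116 and LS513.

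In SW620 the broadest were chr2:28800144-28881573 over PLB1, a phospholipase gene, at 81.4 kb with 431 PETs, chr17:76866449-76944750 over TIMP2, an inhibitor of metalloproteinases, at 78.3 kb with 706, and chr5:1090888-1167184 over SLC12A7, a potassium-chloride cotransporter gene, at 76.3 kb with 828. TIMP2 and SLC12A7 were broad in SW620 only. At TIMP2 HCT116 and LS513 had 7 anchors of up to 18.6 kb with 447 and 341 PETs, and SW480 had 2 with 63. At SLC12A7 HCT116 and LS513 had 4 anchors of up to 18.3 kb with 249 and 982 PETs, and SW480 had 2 with 61. The anchors of LS513 at SLC12A7 were thus all under 20 kb although they held many PETs.

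The 2 broadest anchors found in SW480 only lay on chromosome 2 and were sparse. chr2:38653429-38703905 had 30 PETs over 50.5 kb, or 0.594 per kb, and chr2:121342357-121392226 had 66 over 49.9 kb, or 1.32 per kb. Narrower anchors there held 42, 37 and 24 PETs in HCT116, LS513 and SW620 at the first and 21, 37 and 205 at the second. After FAT1, the broadest anchor of HCT116 and LS513 that was broad in neither other line was chr19:2510114-2558555 at GNG7, a G protein subunit gene, with 694 PETs in HCT116 and 406 in LS513. SW620 had 494 PETs there on 4 anchors covering 89.2% of it, and SW480 had 4 PETs on 1 anchor.

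Partners were most numerous in HCT116 at 2 places on chromosome 19. These were chr19:12883500-12908534 at JUNB, a subunit of the AP-1 transcription factor, with 40 partners, and chr19:1233559-1278515 at MIDN and CIRBP, with 39. JUNB had 41 partners in LS513, 2 in SW480 and 23 at the better connected of 2 anchors in SW620. MIDN and CIRBP had the most of any broad anchor in LS513, at 63, while SW480 had 1 partner there and SW620 had no anchor. LINC00963 followed in LS513 with 51. In SW480 the leading pair was on chromosome 17, with 19 partners at AXIN2 and 18 at chr17:63573781-63609729 nearby. AXIN2 had 25 partners in LS513, 23 in SW620 and 14 in HCT116. In SW620 chr11:65317834-65357699 at EHBP1L1 and LTBP3, a binding protein of latent TGF-beta, had 44 partners, and chr17:73807580-73876072 at UNC13D and TRIM47 had 43. Of the narrower anchors at LTBP3, the best connected had 21, 36 and 3 partners in HCT116, LS513 and SW480. At TRIM47 it had 15, 26 and 2 partners. Partners of the other narrower anchors there are not counted in these.

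Density was highest at ZFP36 in HCT116 and LS513. This immediate early gene, which encodes a protein that promotes decay of AU-rich messenger RNAs and whose promoter is shown above, had 52.3 same-anchor PETs per kb in HCT116 and 102 in LS513 over the 21.0 kb anchor chr19:39886857-39907855. SW620 had 41.3 per kb on 2 anchors of under 20 kb, and SW480 had 9.94 on 1 of 6.64 kb. ITGA3, an integrin gene, followed in HCT116 at chr17:48119784-48143595, with 37.7 per kb there, 32.0 in LS513, 7.26 in SW480 and 14.8 in SW620. MCF2L was next in LS513, with 59.96 per kb there and 5.90 in HCT116. In SW480 BCL2L1, an inhibitor of apoptosis, had the highest density, 9.37 per kb over chr20:30280663-30312887, where SW620 had 25.3 and the 2 anchors of HCT116 and LS513 had 18.97 and 24.8. Second in SW480 was chr8:128037170-128058092, with no gene named, which held 195 PETs, or 9.32 per kb, and 0 partners. HCT116 and LS513 had 35 and 22 PETs there on an anchor of 4.72 kb, and SW620 had no anchor. In SW620 AGAP3 at chr7:150772787-150793928 had 37.6 per kb, and SPNS2, a sphingosine-1-phosphate transporter gene, at chr17:4373500-4419046 had 32.5. At AGAP3 an anchor of 16.0 kb had 22.7 per kb in HCT116 and 78.3 in LS513. At SPNS2 HCT116 had 8.80 and LS513 33.0 per kb.

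Because the 430 broad anchors of HCT116 and LS513 are identical, their PETs could be compared at fixed positions. Same-anchor PETs were set per 1000000 same-anchor PETs of the library, and a difference of 2-fold or more with at least 10 PETs in the higher library was called. All 430 had enough PETs. HCT116 was higher at 36 of them (8.37%) and LS513 at 39 (9.07%). The background over all identical anchors with enough PETs was 21.1% for HCT116 and 9.53% for LS513. Depth moves with these shares: among anchors with at least 100 PETs, a minimum chosen after seeing the data, the shares over all were 7.81% and 14.2%, and 33 and 38 of 399 broad anchors were called. The part of depth in the difference was not tested. The median ratio of HCT116 to LS513 was 0.997 at broad anchors and 1.15 over all identical anchors (0.20 on the log2 scale). The spread of single broad anchors was wide, from 0.158 to 8.47.

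**Figure D5:**
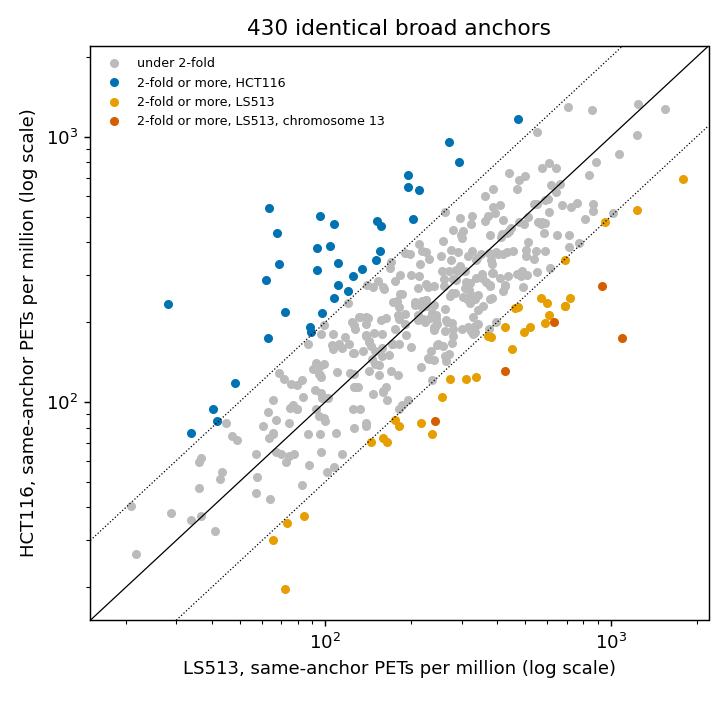
Same-anchor PETs per 1000000 in HCT116 (y axis) against LS513 (x axis), both on log scales, at the 430 identical broad anchors. Points outside the dotted lines differ 2-fold or more: 36 were higher in HCT116 and 39 in LS513, 5 of the latter on chromosome 13.

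The 4 highest ratios were at places with no broad anchor in SW480 or SW620. chr2:227513162-227540733, near IRS1, an adaptor of insulin signalling, had 464 same-anchor PETs in HCT116 against 88 for LS513, a ratio of 8.47 (6.73 to 10.8). ANXA3, an annexin gene, at chr4:79470196-79492023 had 202 and 39, a ratio of 8.32 (5.88 to 12.0). chr1:8099427-8124814, upstream of ERRFI1, an inhibitor of the EGF receptor, had 373 and 94, a ratio of 6.38 (5.07 to 8.08). chr8:128215200-128241150 had 434 and 133, a ratio of 5.24 (4.31 to 6.42). SW480 and SW620 had no anchor at 3 of these and narrower ones at ANXA3, with 14 and 48 PETs. In filtered loop PETs the ratios were 10.7, 3.50, 7.40 and 6.24, of which that of ANXA3 rests on 9 and 7 PETs.

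The 4 lowest ratios included 3 on chromosome 13. MCF2L, a guanine nucleotide exchange factor gene, at chr13:113632565-113657982 had 150 same-anchor PETs in HCT116 against 1524 for LS513, a ratio of 0.158 (0.133 to 0.187). VILL, a villin-like gene, at chr3:38025708-38048038 had 17 and 100, a ratio of 0.273 (0.153 to 0.460). chr13:27521189-27566062 had 236 and 1292, a ratio of 0.293 (0.254 to 0.337), and GAS6, a ligand of TAM receptors, at chr13:114548778-114568798 had 113 and 591, a ratio of 0.307 (0.249 to 0.376). Scaled by the same-anchor PETs of their chromosome in each library, the 3 on chromosome 13 had ratios of 0.348, 0.646 and 0.676, and only that of MCF2L stayed at 2-fold or more. LS513 was higher at 5 of the 8 broad anchors on that chromosome and at 1 after this scaling. A difference in copies of the chromosome and one in acetylation along it cannot be told apart here. VILL had a ratio of 0.245 after the scaling.

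The calls were also seen in loops in most cases. Filtered loop PETs, counted in separate read pairs of the same libraries, differed 2-fold or more in the same direction at 23 of the 36 broad anchors higher in HCT116 and at 25 of the 39 higher in LS513. They lay on the other side of 1 at 2 and 0 of them. The same counts over all called identical anchors are not given here. Both kinds of PETs come from the same libraries, so this is not independent support. On loop PETs alone, 41 of 420 broad anchors were higher in HCT116 and 59 in LS513, against 9.00% and 19.5% of all identical anchors with enough loop PETs.

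Of 29 loci looked for (regulators and markers of the colon and of epithelia, the HOX clusters and 2 long non-coding RNA genes), 15 met a broad anchor in at least 1 line: 11 in HCT116 and LS513, 5 in SW480 and 11 in SW620. VMP1 and MIR21, counted as 2 of these loci, shared 1 broad anchor within each of HCT116, LS513 and SW620. Any anchor at all was found at 28 of the 29 loci in each of HCT116, LS513 and SW620 and at 20 in SW480. No share over all genes stands beside these counts, since no hg19 annotation was at hand. The loci differ in length, from MIR21 to whole HOX clusters, and a longer one can meet a broad anchor by its length alone. EHF, AXIN2 and KRT8 were broad in all 4 lines. At EHF the anchor was 46.0 kb in SW620, 42.2 kb in SW480 and 29.9 kb in HCT116 and LS513. It held 313 same-anchor PETs in HCT116, 264 in LS513, 319 in SW620 and 131 in SW480. KRT8 had anchors of 31.6 kb in HCT116 and LS513, 29.9 kb in SW620 and 28.1 kb in SW480, with 449, 844, 647 and 175 PETs in the order HCT116, LS513, SW620 and SW480, while its partner keratin KRT18 had none of 20 kb.

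The transcription factor genes CDX2, GATA6 and KLF5, active in gut epithelium, were broad in HCT116 and LS513 but in neither other line. HNF4A, of the same kind, was broad in none. Breadth in HCT116 and LS513 alone is common: 223 merged regions had it, against 140 shared with SW620, 18 with SW480 and 45 with both. Their identical lists count as 1 for breadth. CDX2 lay under an anchor of 28.5 kb with 173 PETs in HCT116 and 879 in LS513, and its longest anchor was 5.00 kb with 19 PETs in SW480 and 3.75 kb with 14 in SW620. GATA6 lay under 31.2 kb with 184 and 840 PETs, had no anchor in SW480 and at most 4.32 kb with 5 PETs in SW620. KLF5 lay under 23.3 kb with 73 and 336 PETs, and its longest anchor had 24 PETs in SW480 and 49 in SW620. All 3 were called higher in LS513, with ratios of 0.316, 0.352 and 0.349. CDX2 and KLF5 are on chromosome 13 and had ratios of 0.696 and 0.768 after scaling by chromosome, while GATA6, on chromosome 18, had 0.320.

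Other loci of the list were broad in SW620 alone or with SW480. SW620 alone held 51.9% of all merged regions, so that such a pattern is common. TCF7L2, a nuclear factor of the Wnt pathway, was broad in SW620 only, at 29.4 kb with 98 PETs, where the longest anchor was 12.1 kb in HCT116 and LS513 and 12.4 kb in SW480. EPHB2, a receptor of crypt cells and a Wnt target, was broad in SW620 only at 51.8 kb with 347 PETs. NKD1, a Wnt feedback gene, was broad in SW480 at 41.2 kb with 126 PETs and in SW620 at 34.5 kb with 467. CDH1, which encodes E-cadherin, was broad in SW620 only at 33.3 kb with 428 PETs, while HCT116 and LS513 had 340 and 417 on an anchor of 15.3 kb.

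The HOX clusters differed in which line was broad. HOXA had an anchor of 45.6 kb with 599 PETs in HCT116 against 2488 for LS513, a ratio of 0.387 (0.353 to 0.423), and one of 31.2 kb with 172 PETs in SW620 at another place in the cluster. HOXC was broad in HCT116, LS513 and SW480, with 121, 128 and 51 PETs, and HOXB and HOXD in none. MALAT1, a nuclear long non-coding RNA gene, and VMP1, which holds the microRNA gene MIR21, were broad in HCT116, LS513 and SW620. The 14 loci without a broad anchor included MYC, CCND1, ELF3, SOX9, LGR5 and NEAT1. At MYC the anchor was 7.40 kb long with 234 PETs in HCT116 and 354 in LS513, while SW480 and SW620 had no anchor there, and CCND1 reached 17.1 kb in HCT116 and LS513 and 14.8 kb in SW480 and SW620.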

How the data were processed

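H3K27ac HiChIP libraries of 4 colorectal cancer cell lines, 1 each, were analysed from the deposited tables. The submitters' processing notes name HiC-Pro, with no version, and the build hg19 (GRCh37). For the way anchors were drawn, and for the loop caller, nothing is given in the sources used here. Values in the deposited tables are whole-number counts of PETs for pairs of anchors: all pairs on 1 chromosome (an anchor with itself included), filtered pairs and pairs between chromosomes. Another deposited table adds a value from 0 to 1 per loop with no header. It was taken to be a p-value of the authors after adjustment (FDR). Total same-anchor PETs ran from 130508 to 1386645 per library and filtered PETs from 13885 to 222113. PETs carry no molecular identifiers.

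Anchors on chromosomes 1 to 22 and X were used, which left out 31 pairs on chromosome Y. Length is end minus start, and printed starts are 1-based. Ratio intervals are exact conditional 95% intervals. Regions named were, per line, the 3 broadest anchors, the 2 with most partners, the 2 with most same-anchor PETs per kb and the 2 broadest that were broad in no other line (HCT116 and LS513 as 1 list); the 5 longest regions broad in all 4 lines; and the 4 highest and 4 lowest ratios of HCT116 to LS513. Ties went to the longer anchor. The members, the 29 loci and the tests were chosen with earlier results of these data known. Gene places came from general knowledge of hg19; against RefSeq on GRCh38.p14 the chromosome matched for 77 of 77 genes, the length within 10% for 65, and the order of neighbours for 57 of 57 pairs. Alternatives covered the length threshold, the loops and anchors used, depth, overlap, scaling and fold. Partner counts, overlaps and fold calls were tested on simulated data. Tools were Python 3.11.15 with scipy 1.17.1, pandas 2.3.3, numpy 2.4.6 and matplotlib 3.10.9.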

Additional observations from a re-analysis of the deposited data

How the results depend on the processing

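With 1 library per line there is no spread between replicates. No paired analysis was possible because each line had 1 library and no replicate number. Of 142 values under other settings, 78 moved by less than their limit, 64 moved by more and 0 changed direction. SW480 is limited by depth: its median narrower anchor had 1 partner.

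A length threshold of 15 kb gave 871, 870, 697 and 1889 broad anchors in HCT116, LS513, SW480 and SW620, with 18.7%, 19.9%, 28.8% and 34.4% of same-anchor PETs. At 30 kb there were 130, 130, 94 and 388 anchors with 4.71%, 5.14%, 7.41% and 13.3% of them. At 15 kb the overlap of broad anchors was 20.6% for HCT116 and 20.6% for LS513 in SW480, 52.9% and 53.0% in SW620, 25.3% for SW480 in HCT116 and in LS513, and 24.2% for SW620 in either and 20.8% in SW480. At 30 kb it was 5.38% for HCT116 and LS513 in SW480, 25.4% in SW620, 7.45% for SW480 in HCT116 and in LS513 and 36.2% in SW620, and 8.51% for SW620 in HCT116 and in LS513 and 8.76% in SW480. Counting any anchor of the other line gave 70.9% for HCT116 and LS513 in SW480, 83.7% in SW620, 75.8% for SW480 in HCT116 and in LS513 and 86.8% in SW620, and 82.2%, 82.1% and 72.8% for SW620 in HCT116, LS513 and SW480. Regions broad in all lines numbered 138 at 15 kb, 1 at 30 kb and 184 without SW480.

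With only the anchors of filtered loops, broad anchors held 12.3%, 12.5%, 20.4% and 24.8% of same-anchor PETs, and in SW480 the broad to narrower ratio was 2 for partners and 1.02 for filtered PETs per kb. With loops of at least 2 PETs the ratio of filtered PETs per kb was 3.82 in HCT116, 2.61 in LS513 and 2.30 in SW620. Thinned to the depth of SW480, the ratio of partners was 6.85 in HCT116 and 7.30 in LS513. Totals over total kb gave a ratio of same-anchor PETs per kb of 1.33 in LS513 and 1.34 in SW620. The ratios for loops with FDR under 0.01 in any line, and for loops of at least 2 PETs in SW480, were not run to a value because the median narrower anchor had 0. A fold of 1.5 gave 84 broad anchors higher in HCT116 and 100 in LS513, and filtered loop PETs gave 59 higher in LS513. The causes were not tested.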

Other observations

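The 70 broad anchors of HCT116 that met no anchor in SW620 were as rich in same-anchor PETs as the rest, with a median of 188 (32 to 1115) in HCT116 against 187.5 for the 360 that met one. Of the 70, 29 met no anchor in SW480 either. At 23 of them the stretch without an SW620 anchor was under 100 kb. It was 62.0 kb around the 45.0 kb anchor at MIDN and CIRBP, 63.0 kb around an anchor of 50136 bp at chr17:79946860-79996995 next to the NOTUM and MAFG region, and 47.1 kb around the 25.4 kb anchor upstream of ERRFI1. The median stretch was 116 kb. These examples were chosen after their values were seen. How anchors were drawn in SW620 is not given in the sources used here, and its part in these gaps was not tested.

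Broad anchors were unevenly spread over chromosomes. Chromosome 17 had the largest share in HCT116, where 55 of 1304 anchors were broad (4.22%, 3.19 to 5.45), against 1.98% over all. In SW480 the largest share was on chromosome 14, with 22 of 306 (7.19%, 4.56 to 10.7). In SW620 it was on chromosome 11, with 122 of 1429 (8.54%, 7.14 to 10.1), followed by chromosome 20 with 52 of 879 (5.92%). On chromosome X only 2 of 469 anchors were broad in HCT116, 2 of 483 in LS513, 3 of 203 in SW480 and 11 of 616 in SW620. On chromosome 8, 3 broad anchors of HCT116 and LS513, with 434, 556 and 248 same-anchor PETs in HCT116, lay in a stretch of 2092 kb without an SW620 anchor.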
